A study of Sus scrofa with 16 samples.

Results

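The ligands and receptors of axon guidance were examined in the pituitary of Złotnicka White pigs. These 45 genes are the SLIT, ROBO, semaphorin, plexin, neuropilin, ephrin, Eph receptor, netrin and netrin receptor genes that carry such a symbol in the deposited comparison, and all 45 reached the minimum of 10 counts in at least 8 pigs. They are 45 of 13667 genes that reached this minimum, out of 25880 genes counted. Among them are 24 ligands and 21 receptors. The same minimum was set for every gene. In 43 of the 45 the minimum was reached in all 16 pigs, and no member passed through a single group.

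Whole pituitaries of 16 gilts were sequenced, 8 with low feed conversion (LFC) and 8 with high feed conversion (HFC). High means more feed eaten per unit of weight gained. Every pig has the same age label, 180 days, so ages could not be compared between the groups. In the paper, slaughter followed at a set body weight, and HFC gilts of this breed took longer to reach it and carried more fat. Time on test and fatness therefore go with the group, and their part in the group differences was not tested. A common test station, with common feed and housing, held the animals during fattening, and per the methods no kinship linked them and several farms supplied them. The labels name no agent and no genetic change, so the groups are animals sorted by a trait. The labels keep the feed conversion class under the tag of another trait (shear force), and the class itself was taken as written there. Both lobes of the gland were extracted together, and in such bulk RNA more cells of a type cannot be told apart from more RNA per cell.

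Axon guidance genes work as pairs of a cue and its receptor on the cell that meets it. SLIT proteins are secreted and bind ROBO receptors, semaphorins signal through plexins with neuropilins as partners for the secreted class, ephrins on a cell surface bind Eph receptors on the neighbouring cell, and netrins bind DCC, neogenin (NEO1) and the UNC5 receptors. Beyond growing axons, the same proteins steer blood vessels, migrating cells and the borders between cell layers, and the pituitary holds both secretory cells of the anterior lobe and axons and glia of the posterior lobe.

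Total counts ranged from 6010629 to 11794256 over the pigs, with a median of 7803047 in LFC and 9027332 in HFC pigs. The members had a median of 149 counts per pig and none was below 6. Levels are given as CPM, the counts divided by the TMM-scaled library total, which is not per length, so levels were compared between pigs and not between genes. The tissue label held for the anterior lobe, as prolactin (PRL) had between 15308 and 113170 CPM, while markers of posterior lobe glia and myelin differed widely between the glands: GFAP ranged from 1.97 to 1488 CPM and MBP from 103 to 2865 CPM. The library of HFC pig 5 stood apart from the other HFC pigs. It had the smallest total count of all, the highest level of the blood markers in its group (6.87 on the log2(CPM + 1) scale) and the lowest level of its group in 21 of the 45 members. Counts of members and the other results it bears on are therefore also given without it. As the pig was picked from these values, results without it are a description and no separate test.

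Of the 45 members, 41 had a higher fitted level in HFC pigs, against 51.1% of all genes tested. The median log2 fold change was 0.21, and that of all genes was 0.01. Here and below a positive log2 fold change is higher in HFC pigs. No member passed an adjusted p of 0.05 with a fold change of at least 1.3 when edgeR's quasi-likelihood F test was adjusted by Benjamini-Hochberg, and neither did any other gene (0 of 13667, 0%). The nominal level below is an unadjusted p of no more than 0.05 in edgeR, which 11.5% of all genes reached. At the nominal level 7 members were higher in HFC and 0 were higher in LFC, which is 15.6% of the members beside 8.01% of all genes for higher in HFC and 3.47% for higher in LFC. At an unadjusted p of no more than 0.01 there were 4 members, beside 2.44% of all genes. The 7 members at the nominal level were SLIT1, PLXNB2, EFNA5, ROBO1, PLXNA1, PLXNA3 and PLXNB1, and 5 of the 7 had a fold change of at least 1.3. With total library size in place of TMM, 5 members were higher in HFC at the nominal level, beside 4.69% of all genes, and HFC was the higher group in 45.9% of the genes at this level in place of 69.8%. DESeq2 called 29 genes at the adjusted threshold (0.212%), and SLIT1 was the only member among them. The paper, which used DESeq2 at the same thresholds, reports far more genes for this breed. Its pathway lists of those genes hold the members SLIT2, ROBO1, PLXNA3 and PLXNA4. Why the numbers differ was not tested. Genes that mark cell types were at the nominal level as well: of 63 marker genes tested, 7 were higher in HFC and 4 higher in LFC. PRL itself had a log2 fold change of 1.29 ± 0.27 (unadjusted p = 0.000156), the collagen gene COL1A2 of fibroblasts 0.91 ± 0.19, and the endothelial VWF, FLT1 and CDH5 had 0.81, 0.61 and 0.45. NOTCH3 of pericytes had 0.49 and the dopamine receptor DRD2 had 0.39. Lower in HFC were the prohormone convertase PCSK2 (-1.27 ± 0.48), TBX19 of corticotrophs (-0.51), the hormone subunit CGA (-0.55) and ALAS2 of red blood cells (-0.95). Adjusted p of these 11 genes in edgeR lay between 0.318 and 0.435. They were named for reaching this level. In the fibroblast, pericyte and smooth muscle, and hormone cell lists other markers went the other way. DCN and LUM of fibroblasts had -0.09 each and TAGLN of smooth muscle had -0.12. All 9 endothelial markers tested had a positive log2 fold change, and the 2 blood markers tested had a negative one. The mean levels of the fibroblast, endothelial, and pericyte and smooth muscle lists gave exact permutation p of 0.518, 0.266 and 0.491. The part of the marker genes in the members' values was not tested. In 12 members (26.7%) at least 7 of the 8 HFC pigs were above the LFC median, as they were in 17.5% of all genes. In no member were the 2 groups free of overlap, which 0.022% of all genes were with HFC higher and 0.00732% with LFC higher.

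**Figure D1:**
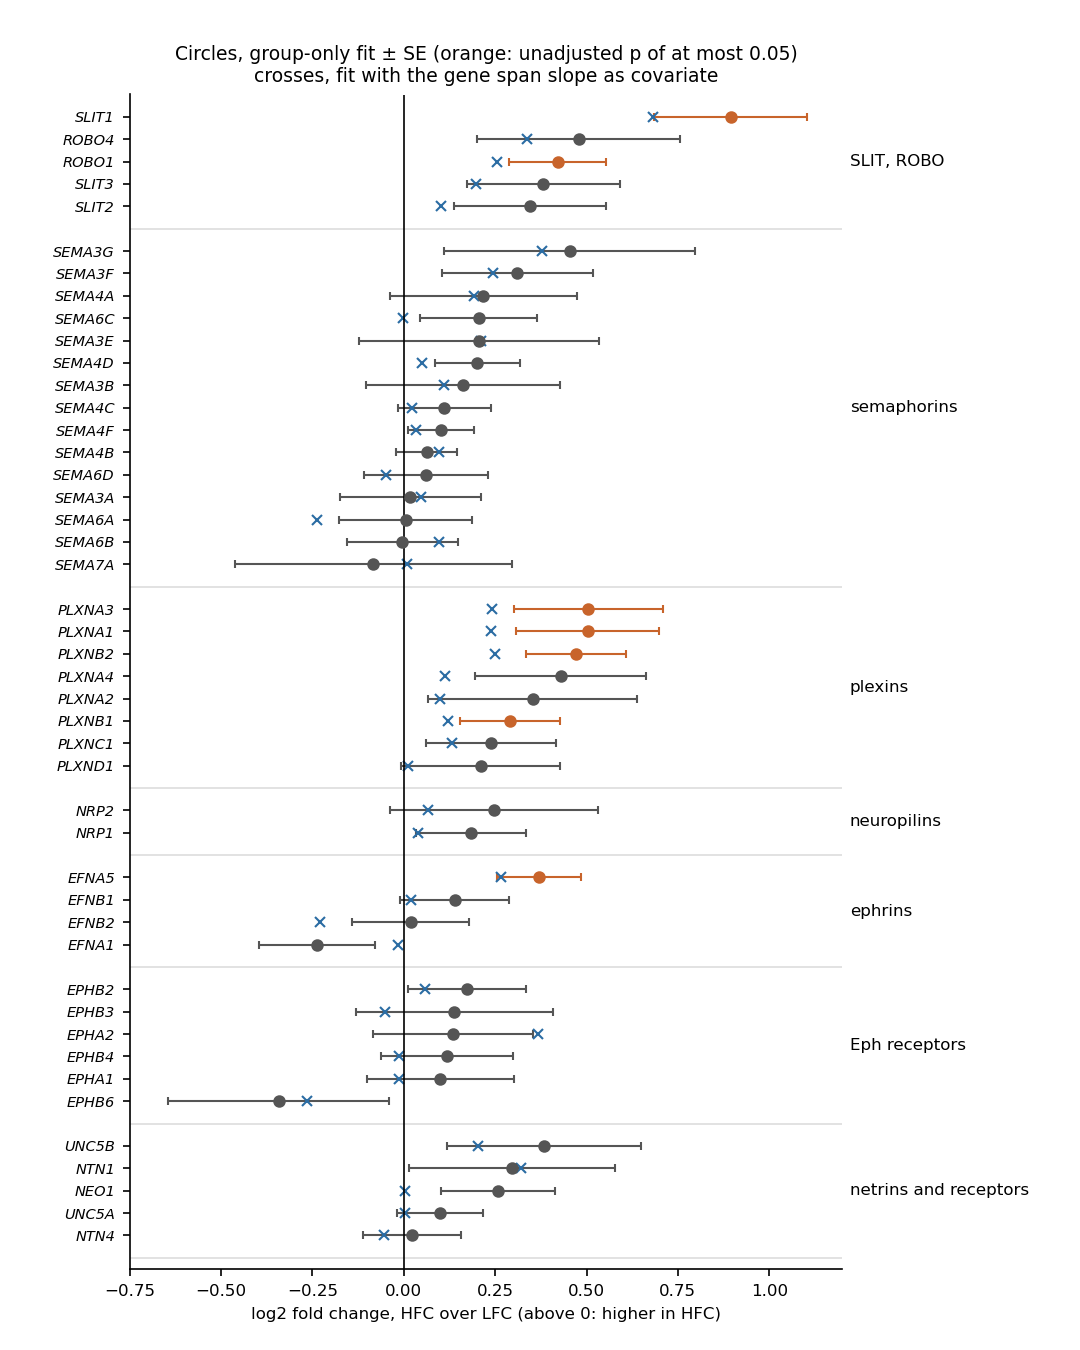
Log2 fold change of HFC over LFC pigs for the 45 members (horizontal axis), arranged by family, with 8 pigs in each group. Circles with bars are the fit on the group alone ± SE, orange at the nominal level, and crosses are the fit with each pig's gene span slope added. Circles lie above 0 for 41 members, and the crosses of all 8 plexins lie below their circles.

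The SLIT and ROBO genes were the family with the largest median log2 fold change, 0.42 over 5 members, all 5 with a higher fitted level in HFC. SLIT1 encodes a secreted repellent of axons and lies on chr14:108445900-108624524 of Sscrofa11.1. Its lowest, median and highest levels were 7.36, 11.6 and 22.0 CPM in LFC pigs and 15.4, 24.3 and 31.2 CPM in HFC pigs. All 8 HFC pigs were above the LFC median and 5 were above the highest LFC pig, yet the groups overlapped. SLIT1 was 1.86-fold higher in HFC (log2 fold change 0.89 ± 0.21 (SE), n = 8 per group, edgeR unadjusted p = 0.000434, adjusted p = 0.318), which placed it 16th by p among the genes tested. In DESeq2 its adjusted p was 0.0346. Leaving out each pig in turn gave log2 fold changes between 0.81 and 1.04, and the unadjusted p stayed at or below 0.00121.

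The receptor ROBO1 binds the SLIT ligands and lies on chr13:175980910-176479481, the longest span of the members with 498.6 kb. The lowest, median and highest levels of ROBO1 were 30.4, 44.5 and 62.0 CPM in LFC and 46.1, 62.9 and 73.7 CPM in HFC pigs. Every HFC pig was above the LFC median, and 5 LFC pigs were below every HFC pig. The log2 fold change was 0.42 ± 0.13 (edgeR unadjusted p = 0.00525, adjusted p = 0.385). The remaining members of this family had higher HFC medians with groups that overlapped over most of their range. SLIT2, another secreted ligand, had a log2 fold change of 0.34 ± 0.21 (unadjusted p = 0.114), and SLIT3 had 0.38 ± 0.21 (unadjusted p = 0.0856). In SLIT3 the highest of all 16 pigs was an LFC pig, number 8, with 37.1 CPM. ROBO4, the ROBO gene known from endothelium, had 0.48 ± 0.28 (edgeR unadjusted p = 0.102). The mean log2(CPM + 1) of the 9 endothelial markers tested was 4.85 ± 0.23 (SD) in LFC and 5.07 ± 0.47 in HFC pigs (exact two-sided permutation p = 0.266, n = 8 per group, adjusted p = 0.608 over 11 measures), and its part in the ROBO4 value was not tested.

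**Figure D2:**
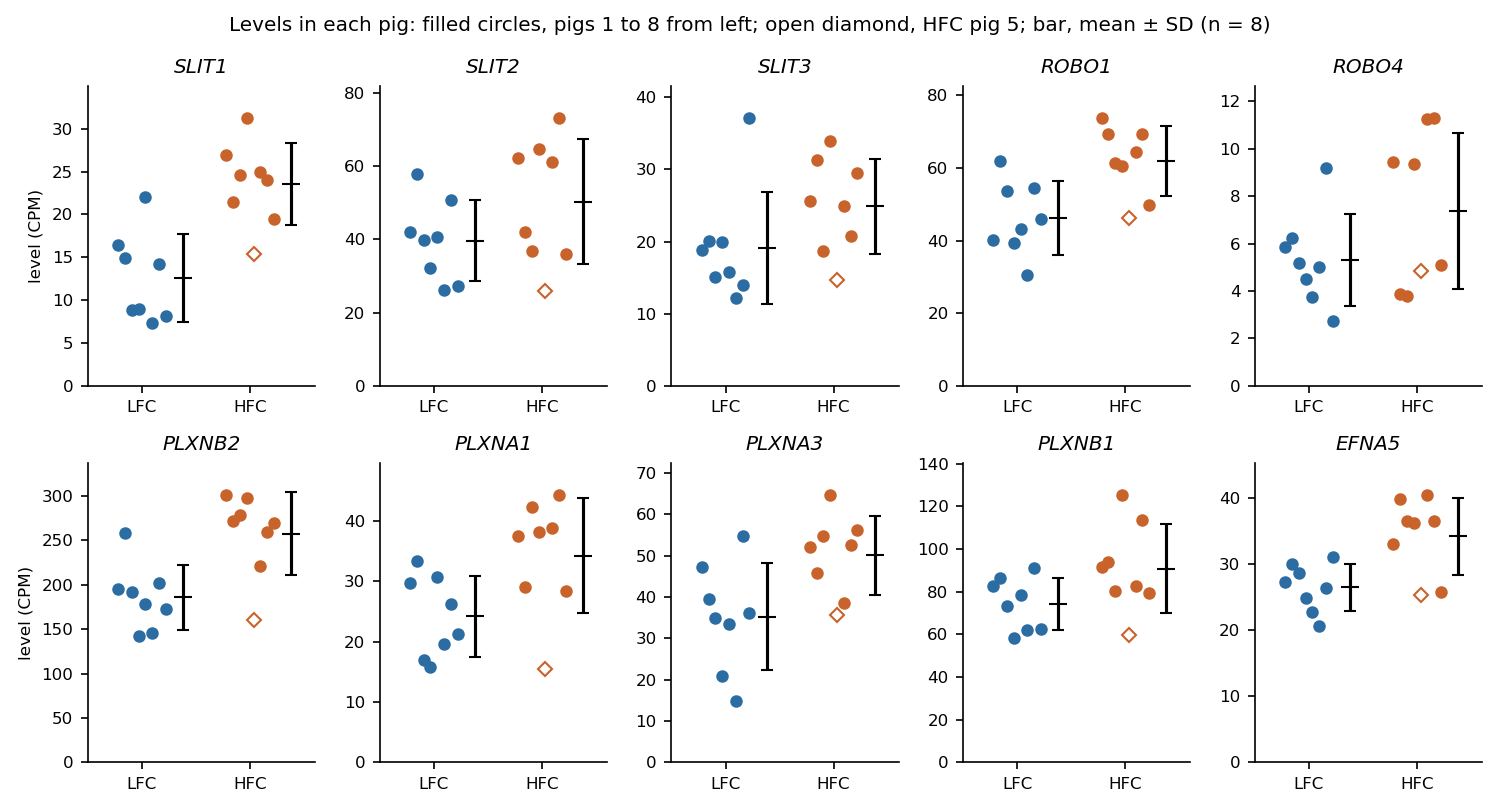
Level in CPM (vertical axis, from 0) of the 5 SLIT and ROBO members and of the other members at the nominal level, with a point for each of 8 LFC and 8 HFC pigs and a bar for the mean ± SD. The open diamond is HFC pig 5, the lowest HFC pig in 9 of the 10 panels, and in SLIT1 it is above 6 of the 8 LFC pigs.

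Plexins, the receptors of semaphorins, had a higher fitted level in HFC in 8 of 8 members, and 4 of the 8 were at the nominal level. Their median log2 fold change was 0.39. PLXNB2, a receptor of class 4 semaphorins (chr5:390363-418324), had lowest, median and highest levels of 142, 185 and 258 CPM in LFC and of 160, 271 and 301 CPM in HFC pigs. Of the HFC pigs, 6 were above the highest LFC pig, and the lowest was pig 5. The log2 fold change of PLXNB2 was 0.47 ± 0.14 (edgeR unadjusted p = 0.00294, adjusted p = 0.372). PLXNB1, the receptor of SEMA4D, differed less (0.29 ± 0.14, unadjusted p = 0.0471, adjusted p = 0.429 in edgeR), and it was at the nominal level in only 6 of the 16 fits that each left out a pig.

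The class A plexins pair with neuropilins to receive the secreted semaphorins. PLXNA1 had lowest, median and highest levels of 15.7, 23.8 and 33.4 CPM in LFC and 15.4, 37.8 and 44.3 CPM in HFC pigs. The lowest level of PLXNA1 in all pigs was in HFC pig 5, while 5 other HFC pigs were above every LFC pig (log2 fold change 0.50 ± 0.20, unadjusted p = 0.0190, adjusted p = 0.397 in edgeR). PLXNA3, on chromosome X, had 14.9, 35.5 and 54.7 CPM in LFC and 35.7, 52.4 and 64.8 CPM in HFC pigs. All 8 HFC pigs were above the LFC median of PLXNA3, by a small margin in pig 5 (log2 fold change 0.50 ± 0.20, unadjusted p = 0.0227, adjusted p = 0.397 in edgeR). PLXNA4 and PLXNA2 had log2 fold changes of 0.43 ± 0.23 and 0.35 ± 0.29, PLXNC1, the receptor of SEMA7A, 0.24 ± 0.18, and PLXND1, a plexin of blood vessels, 0.21 ± 0.22. The lowest unadjusted p of these 4 was 0.0830 (PLXNA4).

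Among the semaphorins themselves, the ligands of the plexins, 13 of 15 members had a higher fitted level in HFC, with a median log2 fold change of 0.11, and 0 of the 15 reached the nominal level. The smallest unadjusted p was 0.0971, for the membrane-bound SEMA4D, whose lowest, median and highest levels were 32.2, 46.4 and 50.7 CPM in LFC and 34.6, 53.2 and 56.8 CPM in HFC pigs. Here 5 HFC pigs were above every LFC pig, and pig 5 was the lowest of its group (log2 fold change 0.20 ± 0.12). Among the 5 secreted SEMA3 members, SEMA3F had 0.31 ± 0.21 (unadjusted p = 0.148), SEMA3G had the largest value of the 15 semaphorin members, 0.45 ± 0.34, and SEMA3A had 0.02 ± 0.19. The HFC pigs spread far more than the LFC pigs in several of them. SEMA3G ranged from 3.60 to 7.88 CPM in LFC and from 2.05 to 13.9 CPM in HFC pigs, and SEMA3F from 18.5 to 26.9 CPM and from 14.9 to 50.8 CPM. The other SEMA4 members (SEMA4A, SEMA4B, SEMA4C and SEMA4F) had log2 fold changes between 0.06 and 0.22. The transmembrane SEMA6C had 0.21 ± 0.16, SEMA6A 0.01 ± 0.18, SEMA6B -0.0044 ± 0.15 and SEMA6D 0.06 ± 0.17. SEMA7A, which is anchored to the membrane by a lipid, had -0.08 ± 0.38, with an HFC range of 1.61 to 13.3 CPM. SEMA3B and SEMA3E completed the class at 0.16 and 0.21.

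The neuropilins bind secreted semaphorins and also the vascular growth factor VEGF. NRP1 had 36.1, 36.9 and 47.3 CPM as lowest, median and highest level in LFC and 31.5, 40.6 and 72.0 CPM in HFC pigs, a log2 fold change of 0.18 ± 0.15 (unadjusted p = 0.237). For NRP2 it was 0.25 ± 0.28 (unadjusted p = 0.396, both in edgeR). Neither neuropilin separated the groups, and HFC pigs held both the lowest and the highest value of each.

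Among the ephrins, EFNA5 was at the nominal level and EFNA1 lay on the other side of 0. EFNA5, an ephrin held to the membrane by a lipid anchor (chr2:112534950-112817478), had lowest, median and highest levels of 20.6, 26.8 and 31.1 CPM in LFC and 25.3, 36.3 and 40.5 CPM in HFC pigs. In EFNA5, 6 HFC pigs were above the highest LFC pig, while pigs 5 and 8 lay inside the LFC range (log2 fold change 0.37 ± 0.12, unadjusted p = 0.00472, adjusted p = 0.385 in edgeR). EFNA1, of the same class, had 33.0, 42.7 and 62.4 CPM in LFC and 26.8, 38.0 and 55.2 CPM in HFC pigs, a log2 fold change of -0.24 ± 0.16 (edgeR unadjusted p = 0.153). Of the transmembrane ephrins, EFNB1 had 0.14 ± 0.15 and EFNB2 0.02 ± 0.16. No Eph receptor reached the nominal level (0 of 6, lowest unadjusted p = 0.271). EPHA1, EPHA2, EPHB2, EPHB3 and EPHB4 had log2 fold changes between 0.10 and 0.17. EPHB6, an Eph receptor without kinase activity, had -0.34 ± 0.30, and its highest level, 12.8 CPM, was in LFC pig 5.

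Netrins and their receptors completed the list with 5 members, all with positive log2 fold changes and none at the nominal level (lowest unadjusted p = 0.117). NEO1, a receptor of netrins and of repulsive guidance molecules, had 40.0, 59.7 and 86.6 CPM as lowest, median and highest level in LFC and 41.3, 72.2 and 84.5 CPM in HFC pigs (log2 fold change 0.26 ± 0.16). Apart from pig 5, every HFC pig was above the LFC median of NEO1. UNC5B and UNC5A, receptors for repulsion by netrins, had 0.38 ± 0.26 and 0.10 ± 0.12. NTN1, the founding netrin, had 0.30 ± 0.28 at levels of 0.861 to 3.90 CPM over all pigs, and NTN4 had 0.02 ± 0.13.

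Without HFC pig 5, 12 members were higher in HFC and 1 was higher in LFC at the nominal level, and 40 of 45 had a positive log2 fold change. The background moved as well: 13.9% of all genes were then at this level and higher in HFC, and 11.9% were higher in LFC. Added to the list were SLIT2 (log2 fold change 0.44 ± 0.19), SLIT3 (0.46 ± 0.20), PLXNA4 (0.53 ± 0.22), SEMA4D (0.26 ± 0.10), NEO1 (0.34 ± 0.14) and, lower in HFC, EFNA1 (-0.33 ± 0.15), with adjusted p between 0.127 and 0.181. The smallest adjusted p of the members was 0.0889, for PLXNB2 and SLIT1, so that no member passed the adjusted threshold in edgeR without this pig either. This pig was chosen in part by the members' own levels, as the lowest HFC pig in 21 of them. LFC pigs 4 and 6, the lowest of their group in 14 and 10 members, were kept in this fit. Counts from it therefore lean towards higher levels in HFC.

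The members share a property that the choice by symbol did not use, how long a stretch of the genome the gene covers. Their median span was 64.9 kb beside 29.6 kb for the 10890 tested genes with a known span, and 64.4% of the members were longer than the latter value. Libraries can differ in how their values depend on gene span, so for each pig the slope of log2(CPM + 1), as deviation from the gene's mean over the pigs, on log2 gene span was computed over 10890 genes, the members included. This slope was -0.017 ± 0.044 (SD) in LFC and 0.017 ± 0.038 in HFC pigs, with an exact two-sided permutation p of 0.125 (n = 8 per group, adjusted p = 0.608 over 11 measures). The HFC mean was 0.028 ± 0.020 (n = 7) without HFC pig 5, and the exact permutation p was then 0.0225 (adjusted p = 0.124). The slope was lowest in LFC pigs 6 (-0.083) and 4 (-0.081) and in HFC pig 5 (-0.064), and highest in HFC pig 1 (0.064). Blood markers were also high in some of these pigs, at 7.09 in LFC pig 4, 6.31 in LFC pig 6 and 6.87 in HFC pig 5, but LFC pig 7 had 6.95 with a slope of 0.023. Over the groups the mean log2(CPM + 1) of the 2 blood markers tested, HBB and ALAS2, was 6.00 ± 0.73 in LFC and 4.90 ± 1.00 in HFC pigs (exact permutation p = 0.0272, adjusted p = 0.299). Without HFC pig 5 the HFC mean of blood markers was 4.62 ± 0.65, and this difference then passed (exact permutation p = 0.00186, adjusted p = 0.0205). This pig had the highest blood level and the lowest slope of its group, and its blood level was a reason to set it apart. Leaving it out widens both differences by choice, so the p-values without it are no separate test. The part of either measure in the members' group differences was not tested beyond the fit with the slope given below.

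**Figure D3:**
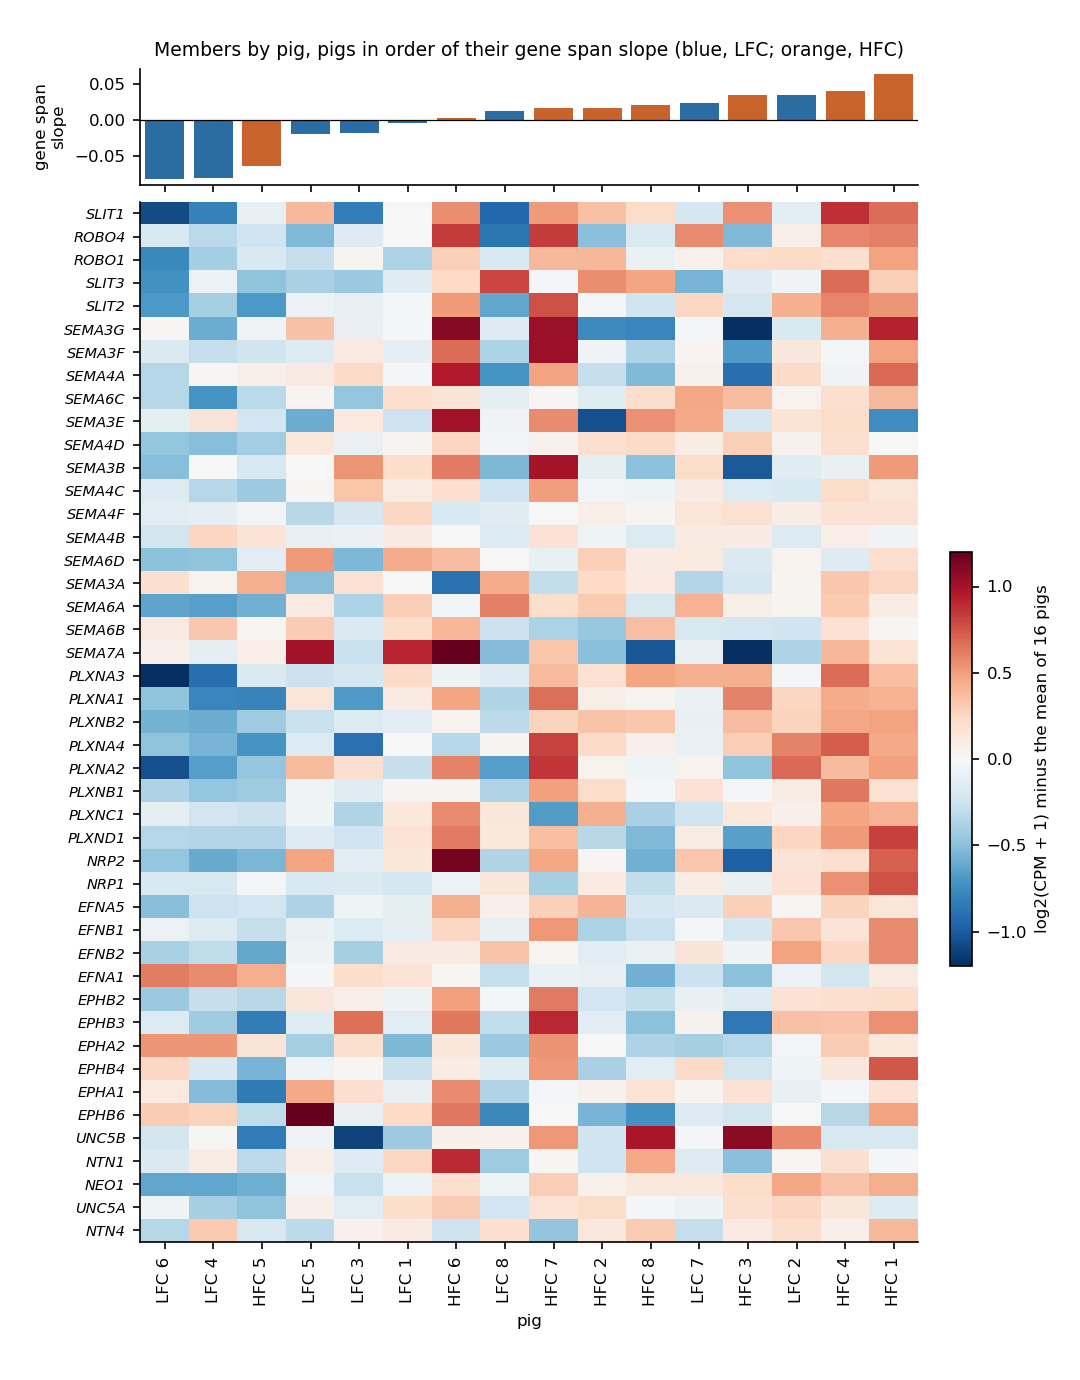
Level of each of the 45 members (rows) in each of the 16 pigs (columns), as log2(CPM + 1) minus the mean of all pigs, red above and blue below that mean, with pigs ordered by the gene span slope drawn as bars on top (blue LFC, orange HFC). Differences beyond the ends of the colour scale are drawn in its end colours. The 3 pigs with the lowest slope, LFC 6, LFC 4 and HFC 5, are blue in NEO1, PLXNB2 and PLXNA1 and red in EFNA1.

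Levels of many members followed this slope. Over 16 pigs the median Pearson r of the members with it was 0.46, beside 0.06 for all genes, and 33.3% of the members had r of at least 0.6, beside 22.0% of all genes. Of the 90 correlations of members with this slope or with the glia and myelin level, 9 with the slope had adjusted permutation p of at most 0.05 by both Pearson and Spearman measures. NEO1 had r = 0.953 and rho = 0.900, and PLXNB2 had r = 0.897 and rho = 0.894. PLXNA3 had r = 0.859, SEMA6C 0.808, EFNB2 0.806, ROBO1 0.798, PLXNA4 0.775 and PLXNB1 0.742. EFNA1 went the other way, with r = -0.785 and rho = -0.676. Without the 2 pigs of most extreme slope r was 0.912 for NEO1, 0.832 for PLXNB2, 0.812 for EFNB2, 0.776 for PLXNA4, 0.687 for SEMA6C, 0.682 for PLXNA3, 0.632 for ROBO1, 0.620 for PLXNB1 and -0.581 for EFNA1. Without HFC pig 5 alone the 8 positive values lay between 0.699 and 0.944, and EFNA1 had -0.753. Of the 8 genes with positive r, 4 are shorter than the median of the tested genes with a known span: PLXNB2 (28.0 kb), PLXNB1 (21.0 kb), SEMA6C and PLXNA3 (12.1 kb). Members with high r were therefore not all long genes. SLIT1 had r = 0.651 with an adjusted permutation p of 0.0315, and rho = 0.574 with 0.103, so only the former passed, and its r was 0.398 without the 2 extreme pigs. The slope comes from the same libraries as the levels, and these values describe how they move together.

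With the slope in the fit as a covariate, 35 of the 45 members had a positive log2 fold change and the median log2 fold change of the members went from 0.21 to 0.10. At the nominal level 4 members were then higher in HFC and 1 was higher in LFC, while 3.24% of all genes were at that level and higher in HFC and 1.87% were higher in LFC. SLIT1 had a log2 fold change of 0.68 (unadjusted p = 0.00316, adjusted p = 0.776), PLXNB2 had 0.25 (unadjusted p = 0.00370), EFNA5 had 0.26 (unadjusted p = 0.0236) and ROBO1 had 0.26 (unadjusted p = 0.0189). PLXNA1 and PLXNA3 each had 0.24 (unadjusted p = 0.160 and unadjusted p = 0.0854), and PLXNB1 had 0.12. NEO1 went from 0.26 to 0.0036. EFNB2, at 0.02 without the slope, had -0.23 with it (unadjusted p = 0.0311). With the slope in the fit and HFC pig 5 left out, 5 members were higher in HFC and 0 higher in LFC at the nominal level, beside 2.97% and 2.52% of all genes. The 5 were SLIT1, PLXNB2, EFNA5, ROBO1 and PLXNA1, and EFNB2 then had -0.21 (unadjusted p = 0.0778).

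A smaller group of members followed the posterior lobe markers instead. The median r of the members with them was 0.19, beside 0.0022 for all genes, and 13.3% of the members had r of at least 0.6, beside 6.48% of all genes. The mean log2(CPM + 1) of 10 glia and myelin markers was highest in HFC pig 6 (6.99), LFC pig 5 (6.96) and LFC pig 1 (5.95) and lowest in HFC pig 3 (2.30). SEMA7A had r = 0.885 and rho = 0.809 with it, and r = 0.810 without the 2 most extreme pigs. NRP2 (r = 0.746, rho = 0.715), SEMA4A (0.631, 0.679) and SEMA3G (0.609, 0.700) also passed by both measures among the 90 correlations, with r of 0.618, 0.559 and 0.497 without those pigs. The wide HFC range of SEMA7A runs from pig 3 to pig 6, the lowest and highest of the marker level. With this marker level in the fit, 8 members were higher in HFC at the nominal level (beside 8.69% of all genes), SLIT1 among them at a log2 fold change of 1.06 (unadjusted p = 3.6e-05, adjusted p = 0.295 in edgeR). This fit gave, without HFC pig 5, 14 members higher in HFC at the nominal level, beside 15% of all genes.

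**Figure D4:**
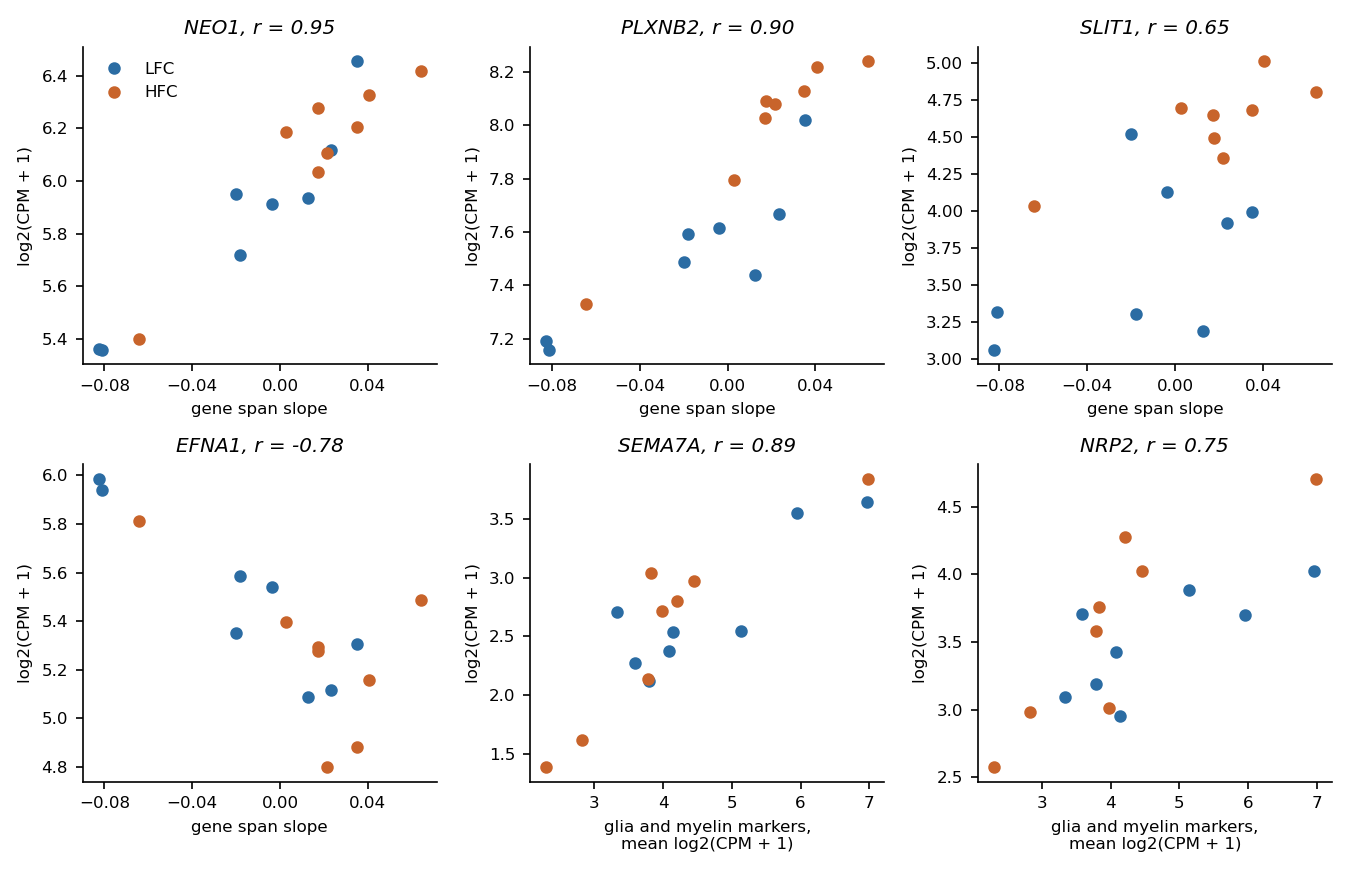
Level of 6 members in log2(CPM + 1) (vertical axis) in each pig against the gene span slope of the pig or the mean log2(CPM + 1) of glia and myelin markers (horizontal axis), with LFC pigs in blue and HFC pigs in orange. NEO1 and PLXNB2 climb with the slope and EFNA1 falls along it, SLIT1 has r = 0.651 with the slope with LFC pig 5 above several HFC pigs, and SEMA7A climbs with the markers (r = 0.885).

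Ligands and receptors listed as partners were compared over the 16 pigs in 20 pairs, some with a relative outside the 45 members. Binding of each pair was taken as given and not examined here. Of the pairs, 5 had adjusted permutation p of at most 0.05 for both r and rho. SLIT2 and ROBO4 had r = 0.819 (adjusted p = 0.0014) and rho = 0.765. Within the groups the Pearson r of this pair was 0.685 in LFC (exact permutation p = 0.0566, n = 8) and 0.857 in HFC pigs (exact permutation p = 0.0215, n = 8). SEMA3F and its receptor NRP2 had r = 0.808 (adjusted p = 0.0014) and rho = 0.824, with r = 0.527 in LFC (exact permutation p = 0.179, n = 8) and 0.877 in HFC pigs (exact permutation p = 0.00541, n = 8). EFNB1 and EPHB3 had r = 0.762 (adjusted p = 0.00405) and rho = 0.671, with r = 0.334 in LFC (exact permutation p = 0.386, n = 8) and 0.867 in HFC pigs (exact permutation p = 0.0129, n = 8), and r = 0.770 with both genes centred on their group means. Whether r differs between the groups was not tested for any pair. SLIT2 and ROBO1 had r = 0.754 (adjusted p = 0.00405) and rho = 0.738, and r of 0.781 in LFC and 0.766 in HFC pigs. SLIT1 and ROBO1, both at the nominal level, had r = 0.698 (adjusted p = 0.0104) and rho = 0.647. With both genes centred on their group means r fell to 0.435, and it was 0.331 in LFC (exact permutation p = 0.421, n = 8) and 0.700 in HFC pigs (exact permutation p = 0.0533, n = 8). Leaving out the 2 pigs whose ligand level was most extreme, r of these 5 pairs was 0.812, 0.836, 0.662, 0.743 and 0.570, and without HFC pig 5 it was 0.846, 0.805, 0.743, 0.767 and 0.700. Of the other 15 pairs, SEMA4D with PLXNB1 (r = 0.692) and EFNA1 with EPHA2 (r = 0.606) passed by Pearson r only, and 13 passed by neither. Among these were SEMA3A with NRP1 (r = 0.358), SEMA7A with PLXNC1 (r = 0.230) and NTN1 with NEO1 (r = 0.242). The share of other gene pairs that pass the same test was not computed. Members outside the 20 pairs could be as close: EPHB3 with SEMA3F and PLXNB2 with NEO1 each had r = 0.909 with genes centred on their group means.

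Given the gene span slope, the partial correlation of SLIT2 with ROBO4 was 0.843 and that of SEMA3F with NRP2 0.794, while those of SLIT2 with ROBO1, SLIT1 with ROBO1 and SEMA4D with PLXNB1 were 0.477, 0.391 and 0.199.

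With every gene centred on its group mean, the median Pearson r over the 990 pairs of members was 0.27, beside 0.0005 over all pairs of genes tested, and 17.6% of the member pairs had r of at least 0.6, beside 6.76% of all pairs. These values share libraries and are a description. Over the 28 pairs of the 8 plexins the median r was 0.54, and over the 15 pairs of the class A and B plexins it was 0.72. The highest value was that of SEMA3B and SEMA3F (r = 0.913), which lie 66.7 kb apart on chromosome 13, whereas SEMA3A and SEMA3E, 296 kb apart on chromosome 9, had r = -0.451. The lowest was that of EFNA1 and SEMA4D (r = -0.842). The genes most like SLIT1 over the 16 pigs, by the same centred r, were APC2 (0.934), SHANK3 (0.932) and MAP4K2 (0.910), and those most like ROBO1 were MYO10 (0.896), KIF16B (0.894) and VWA8 (0.891).

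Other genes of the pathway, a list of co-receptors, further cues and effectors inside the cell, gave 100 genes tested. Of these, 72 had a positive log2 fold change with a median of 0.13, and 11 at the nominal level were higher in HFC and 1 was higher in LFC, shares of 11.0% and 1.0% beside 8.01% and 3.47% of all genes. The smallest p belonged to ROCK2, a kinase that acts on the cytoskeleton below plexins and ephrin receptors (log2 fold change 0.37 ± 0.10, unadjusted p = 0.00224, adjusted p = 0.360). SRGAP3, which binds ROBO receptors and switches off Rac, had 0.51 ± 0.16 (unadjusted p = 0.00563). L1CAM, an adhesion molecule of axons and partner of NRP1, had 0.56 ± 0.19 (unadjusted p = 0.00714), from 54.0 to 157 CPM in LFC and from 97.8 to 184 CPM in HFC pigs. FLRT3, a ligand of UNC5 receptors, was the gene at the nominal level that was lower in HFC (-0.33 ± 0.14, unadjusted p = 0.0272), and the next in that direction were the adaptor NCK2 (-0.17 ± 0.08, unadjusted p = 0.0512) and the chemokine receptor CXCR4 (-0.32 ± 0.17, unadjusted p = 0.0831). With the gene span slope in the fit, 3 of the 100 were higher in HFC and 2 higher in LFC at the nominal level, and the median was 0.0047. The shares of all genes in that fit were 3.24% and 1.87%. Without HFC pig 5, 31 were higher in HFC and 4 higher in LFC, beside 13.9% and 11.9% of all genes.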

How the data were processed

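RNA of whole pituitaries from 16 pigs was sequenced in single-end libraries that do not mark strand. After trimming and alignment to Sscrofa11.1, the authors deposited unnormalized counts per Ensembl gene and pig. The labels' processing notes list CASAVA 1.8.2, FastQC, RSEM, STAR and DESeq2, and the paper names Bowtie 2 as well, so which aligner made the counts was not settled. The deposited comparison of the groups was used for gene symbols and positions only, and its group means, ratios and p-values were not used. Symbols of all 45 members were the same in the reference gene list. Without strand, reads of overlapping genes cannot be told apart: 10 members overlap another coding gene there (PLXNC1, EPHB4, NRP1, SEMA3F, SEMA3B, UNC5A, EPHA1, EPHB6, PLXNA4 and SEMA4B), none of them among the 7 members with the smallest p.

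Genes with at least 10 counts in 8 or more pigs were tested with edgeR 4.0.16 (R 4.3.3), with TMM scaling, quasi-likelihood F tests, the group as the only term and Benjamini-Hochberg adjustment over 13667 genes. Calls followed the study's thresholds, 0.05 for the adjusted p and 1.3 for the fold change in either direction. Standard errors (SE) of fold changes were derived from the F statistic. CPM are per TMM-scaled library, with a pseudocount of 1 on the log2 scale. Correlations used 100000 resamples over 16 pigs and were exact over 8, and marker lists were compared by exact permutation of the group labels. On simulated counts of 13667 genes for HFC against LFC, edgeR recovered 71 of 100 genes changed 2-fold and 32 of 100 changed 1.5-fold, with 4 unchanged genes called. DESeq2, the only tool to call a member, recovered 78 and 50 of them, with 15 unchanged genes called. Within groups, edgeR's common coefficient of variation was 0.25, and no pair of libraries of a group was a near copy (chi-square per degree of freedom from 11.4 to 85.9). Alternatives used DESeq2 1.42.0, limma 3.58.1 (voom with quality weights), sva 3.50.0, other scalings and filters, covariates, a replicate block and leaving out each pig.

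The members and lists were chosen with earlier results of these data known. Named were members at an unadjusted p of at most 0.05, all SLIT and ROBO members, in each subfamily the member with the smallest p and the member with the highest CPM, 3 other pathway genes in each direction and the 3 genes most like SLIT1 and ROBO1. The remaining members were named to account for each, and marker genes were picked once their values were known. Permutations and summaries were run in Python 3.11.15 (scipy 1.17.1, numpy 2.4.6, pandas 2.3.3).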

Additional observations from a re-analysis of the deposited data

Results flagged for a closer look

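In 112 groups of 8 values (each member, marker list and the span slope in LFC and in HFC pigs), the highest or lowest pig was compared with the others by Dixon's ratio, and 7 stood farther out than the critical value of 0.526 allows. Chance gives about 5.0% of groups. In 4 of the 7 the pig was HFC 5, lowest of its group: EPHA1 at 2.79 CPM (next 5.72), NEO1 at 41.3 CPM (next 64.5), PLXNA1 at 15.4 CPM (next 28.4) and SEMA4D at 34.6 CPM (next 46.6). The highest LFC pig stood apart in EFNB1, at 23.5 CPM in pig 2 (next 18.4), and in SLIT3, at 37.1 CPM in pig 8 (next 20.1). The mean log2(CPM + 1) of the myelin markers was 8.09 in HFC pig 6 (next 5.18).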

How the results depend on the processing

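The number of members higher in HFC at an unadjusted p of at most 0.05, 7 in the reported fit, was 4 with 1 surrogate variable, 4 with the gene span slope, 4 at a threshold of 0.01, and from 5 to 12 with each pig left out, the highest without HFC replicate 5. With the glia and myelin markers in the fit and HFC replicate 5 left out, a setting chosen after seeing the data, it was 14. With the span slope in place of these markers and the same pig left out, it was 5. With 1 surrogate variable 30 of the 45 members had a positive log2 fold change, beside 50.6% of all genes, and the members' median was 0.06. In that fit 3.38% of all genes were higher in HFC at an unadjusted p of at most 0.05. Members higher in LFC numbered 1 with the gene span slope and from 0 to 1 with each pig left out. DESeq2 called 1 member and 29 genes in all at the adjusted threshold. All genes at an unadjusted p of at most 0.05, 1569 as reported, numbered 725 with 1 surrogate variable, 699 with the span slope, 2595 with limma voom, and from 988 to 3522 with each pig left out. The 11 other pathway genes became 5 with 1 surrogate variable, 3 with the span slope, 17 with the glia and myelin markers, 23 with voom and from 6 to 31 with each pig left out. Of the 11 marker measures, from 0 to 1 passed with each pig left out. The cause of these changes was not tested.

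Replicate numbers in the labels did not pair the pigs: deviations of same-numbered pigs correlated between -0.34 and 0.37, and no pig correlated best with its own number. With the replicate block, 6 members, 10 other pathway genes and 1404 genes in all were at this level.

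Of the named members, SLIT1, PLXNB2, EFNA5, ROBO1 and PLXNA1 stayed at an unadjusted p of at most 0.05 in all 16 fits that left out a pig, PLXNA3 in 15 and PLXNB1 in 6. Under the other alternatives SLIT1, PLXNB2, EFNA5 and ROBO1 kept this level. PLXNA1 lost it with 1 surrogate variable (unadjusted p = 0.146), the span slope and the replicate block (unadjusted p = 0.0516). PLXNA3 lost it with 1 surrogate variable (unadjusted p = 0.0709), the span slope and total library scaling (unadjusted p = 0.0504). PLXNB1 lost it in 7 alternatives: 1 surrogate variable, the span slope, the replicate block, total library and upper-quartile scaling, the expression filter and no filter. The log2 fold change changed sign in 16 members, whose reported values lay between -0.08 and 0.21. With 1 surrogate variable it was -0.17 for EFNB2, -0.084 for EPHA1, -0.010 for EPHB2, -0.15 for EPHB3, -0.037 for EPHB4, -0.064 for SEMA3E, -0.029 for SEMA4C, -0.023 for SEMA6D, -0.00086 for NTN4, -0.16 for SEMA6A and -0.0041 for UNC5A. With the gene span slope it was -0.23 for EFNB2, -0.014 for EPHA1, -0.051 for EPHB3, -0.012 for EPHB4, -0.048 for SEMA6D, 0.097 for SEMA6B, -0.055 for NTN4, -0.24 for SEMA6A, -0.0011 for SEMA6C and 0.0077 for SEMA7A. With the glia and myelin markers it was -0.037 for NTN4, -0.11 for SEMA3A, 0.050 for SEMA6B and 0.15 for SEMA7A. With upper-quartile scaling it was -0.015 for EFNB2, -0.018 for SEMA3A, -0.013 for NTN4 and -0.027 for SEMA6A. SEMA6A had -0.0089 with DESeq2, -0.0093 with RLE scaling, -0.013 with edgeR's expression filter, -0.010 with no filter and -0.011 with total library scaling, EFNB2 -0.0020 with the expression filter, and SEMA3A -0.0022 with that filter and -0.0039 with the replicate block. With each pig left out the ranges were -0.091 to 0.091 for EFNB2, -0.017 to 0.20 for EPHA1, -0.050 to 0.072 for NTN4, -0.072 to 0.11 for SEMA6A, -0.049 to 0.27 for EPHB3, -0.033 to 0.19 for EPHB4, -0.074 to 0.10 for SEMA3A, -0.056 to 0.26 for SEMA3B, -0.033 to 0.34 for SEMA3E, -0.089 to 0.054 for SEMA6B, -0.0094 to 0.14 for SEMA6D and -0.41 to 0.086 for SEMA7A. The fits with robust estimation and with at least 10 counts in every pig moved no count of calls by more than 1.5 times.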

Other observations

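The families hold 25 further genes whose symbols come only from the reference gene list, and 18 of them reached the count minimum. Of these 18, 14 had a positive log2 fold change, and 4 were at the nominal level in edgeR (unadjusted p no more than 0.05), all higher in HFC (22.2%, beside 8.01% of all genes). Without HFC pig 5, 5 were, all higher in HFC, beside 13.9% of all genes. They were SEMA5B (0.52 ± 0.19, unadjusted p = 0.0139), SEMA5A (0.80 ± 0.30, unadjusted p = 0.0152), ROBO2 (0.48 ± 0.19, unadjusted p = 0.0176) and SEMA4G (0.39 ± 0.15, unadjusted p = 0.0190), each with an adjusted p of 0.397. SEMA5A and SEMA5B are transmembrane semaphorins with thrombospondin repeats, and ROBO2 is the neuronal relative of ROBO1. The netrin receptor DCC had 0.42 ± 0.26 (unadjusted p = 0.126). DCC and these 4 were singled out with their values known.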
